A study of Cicer arietinum with 18 samples.

Results

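Salicylic acid (SA) treatment of chickpea (Cicer arietinum) seedlings was followed here at its earliest harvest, 3 h after treatment. The members are the 3 samples whose labels name SA and 3 h, of 18 in the series, 1 for each of the genotypes FLIP94-508C, ICC3996 and Lasseter. RNA came from pooled stem and leaf of seedlings aged 14 days and was hybridised with RNA of untreated plants of the same genotype on a spotted cDNA array. ICC3996 is known as resistant to ascochyta blight, Lasseter as susceptible and FLIP94-508C as in between. The comparison groups, with the same genotypes, age and tissue, were SA at 27 h, methyl jasmonate (MeJA) at 3 h and aminocyclopropane carboxylic acid (ACC) at 3 h. Concentrations are not given in the sources used here, and whether the compounds share untreated control RNA is not known from the labels.

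SA is a phenolic plant hormone that accumulates in infected tissue and, in Arabidopsis, acts through the receptor protein NPR1 and TGA transcription factors to switch on pathogenesis-related genes. It is needed for systemic acquired resistance, the state in which leaves distant from an infection become harder to infect. MeJA is the methyl ester of jasmonic acid, a hormone of wounding, and plants turn ACC into the gas ethylene. Jasmonate and SA signalling are known to restrain each other in several plants. Ascochyta blight is a fungal disease of chickpea stems, leaves and pods.

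A value is the authors' mean log2 ratio over 3 biological replications with dye swaps. It is read as treated over untreated, since the labels call the channels control and treatment and the design text speaks of changes against untreated plants. That direction is likely but not stated, and with the ratio the other way round every fall below would be a rise and every rise a fall, shares and counts included. The array holds 715 experimental features with identifiers that start with CA, LS or U. None of them could be matched to a gene (0 matches in the gene table used here), so no gene name, role or sequence can be given, and features are named by identifier. In whole shoots, fewer cells of a type and less RNA per cell cannot be told apart. At 3 h after SA, 577 features had a value in FLIP94-508C and 542 in ICC3996, with 552 in Lasseter, and 507 had one in all 3. The samples had medians of -0.06, -0.02 and -0.22 and standard deviations over features of 0.74, 0.86 and 1.22, in the same order. Lasseter thus had the widest spread. Of the normalisation controls on the array, NORMCON2 lay between 0.03 and 0.17 and NORMCON4 between 0.03 and 0.12 in these samples, while NORMCON3 was at -0.64 in FLIP94-508C and -0.27 in Lasseter and had no value in ICC3996. In the same order of genotypes NORMCON3 was at -0.89, -2.83 and -1.31 at 27 h after SA. It was at -2.33, -0.71 and -2.33 3 h after ACC and at -0.34, 0.29 and -0.44 3 h after MeJA. Whether this bears on the comparisons between groups was not tested.

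On that reading most large early changes were falls, and Lasseter had the most of them before scaling. In FLIP94-508C 46 features were at least 2-fold lower than control (7.97% of those measured) and 10 at least 2-fold higher (1.73%). In ICC3996 51 were lower (9.41%) and 2 higher (0.369%), and in Lasseter 122 were lower (22.1%) and 33 higher (5.98%). At 8-fold, 6, 11 and 20 features were lower in FLIP94-508C, ICC3996 and Lasseter, and 1, 0 and 3 were higher. The order of the genotypes depended on their spreads, taken here as the median absolute deviation over features rather than the standard deviation. It was 0.34, 0.58 and 0.89, in the same order. In the setting called equal spread, each sample's median was subtracted and all samples were scaled to the same median absolute deviation. FLIP94-508C then had 90 features changed at least 2-fold, ICC3996 had 38 and Lasseter had 47. Each genotype has 1 sample, so these counts have no replicate check.

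**Figure D1:**
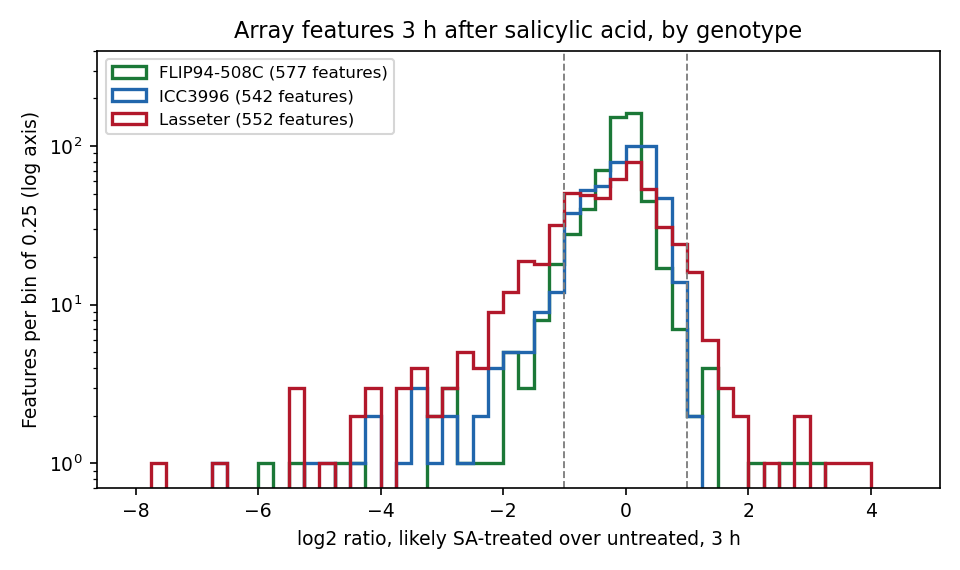
Number of features per bin of log2 ratio (width 0.25, log vertical axis) 3 h after SA in the 3 genotypes. Dashed lines mark 2-fold lower and higher; the left tail holds 46, 51 and 122 features in FLIP94-508C, ICC3996 and Lasseter and the right tail 10, 2 and 33.

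Falls made up 82.1% of the 2-fold changes in FLIP94-508C and 96.2% in ICC3996, with 78.7% in Lasseter, or 85.7% ± 9.28 (SD, n = 3). The share was 78.4% ± 4.30 (SD, n = 3) at 27 h after SA, 77.6% ± 5.11 (SD, n = 3) 3 h after ACC and 70.6% ± 8.83 (SD, n = 3) 3 h after MeJA. The SA samples at 3 h were not distinguishable in this share from SA at 27 h (exact permutation p = 0.4), ACC (exact permutation p = 0.3) or MeJA (exact permutation p = 0.2), two-sided. Adjusted over the 12 such comparisons made of sample values, these were 0.6, 0.514 and 0.514. Groups of 3 against 3 cannot give a p below 0.1.

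The response common to the genotypes was tested as the mean of the 3 samples against 0. With limma, 32 of 523 features passed (6.12%), of which 29 fell (5.54% of those tested) and 3 rose (0.574%), at a Benjamini-Hochberg adjusted p under 0.05. Of the falls, 22 had a mean of at least 2-fold, and none of the 3 rises did (0). The falls had a median mean log2 ratio of -1.37 and ran from -3.89 to -0.67, beside a median of -0.13 over all features tested. Subtracting each sample's median moved that overall median to -0.03, and 23 features then fell and 4 rose. Without the Lasseter sample at 3 h, 27 of the 32 could be tested, and U160, U166, U201, U247 and U291 could not. In that fit of 498 features 2 fell and none rose in limma, and 36 had an unadjusted p under 0.05.

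The sizes of the falls differed among the genotypes. Of the 29 falls, 28 were below 0 in every genotype with a value, a count that reflects their choice by the mean of these values; over all 507 features with 3 values, 111 were below 0 in every genotype. The exception was U461, at 0.20 in FLIP94-508C and -3.28 in ICC3996, with -3.71 in Lasseter. Of the 23 falls with a value in all 3 genotypes, 4 were at least 2-fold lower in all of them, 7 in 2 of them, 11 in 1 and 1 in none. The last was U369, at -0.61, -0.56 and -0.84 in FLIP94-508C, ICC3996 and Lasseter. Lasseter held the lowest value for 18 of the 23 (78.3%), against 40.2% of all 493 features tested that had 3 values. After scaling to equal spread Lasseter was lowest for 30.4% of the 23 and FLIP94-508C for 39.1%, against 20.7% and 41.8% of the 493. Across the falls the median log2 ratio was -0.84 in FLIP94-508C (26 values), -0.99 in ICC3996 (27 values) and -2.14 in Lasseter (28 values).

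**Figure D2:**
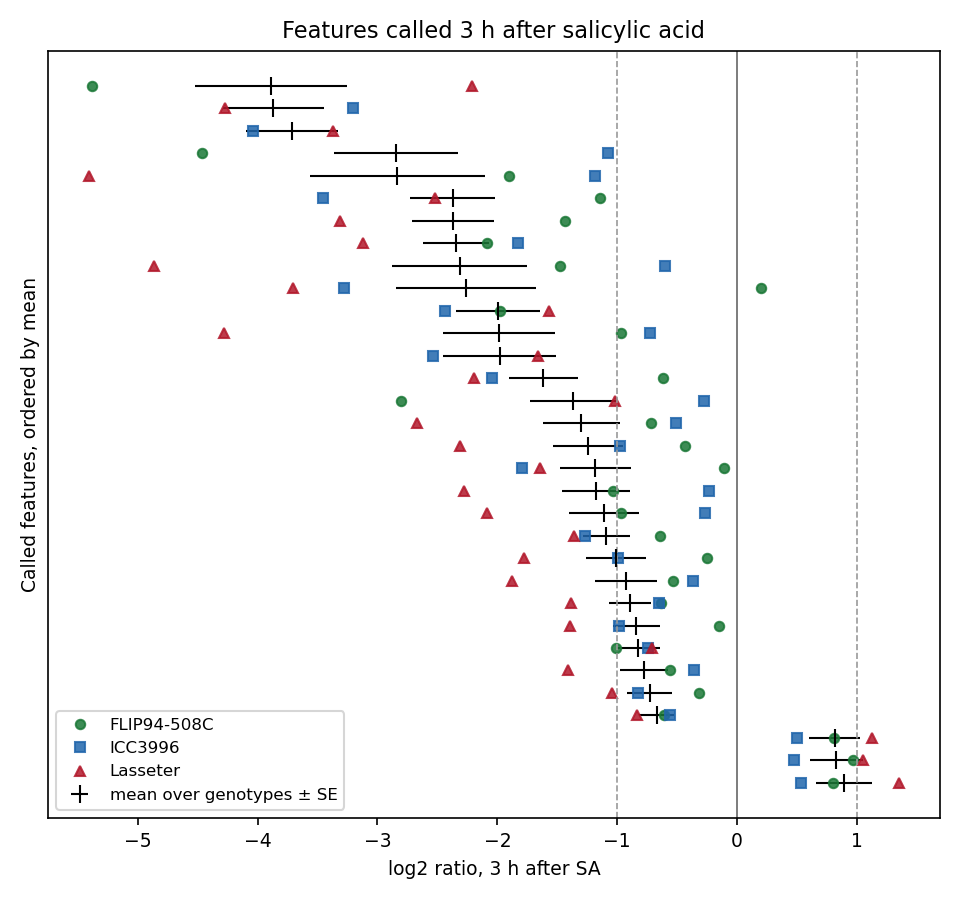
Log2 ratio 3 h after SA of the 32 features that passed the test, 1 per row in order of the mean. Symbols are the genotypes and the black tick with its bar is the fitted mean ± SE; 29 rows lie left of 0 and 3 right of it, and Lasseter is the leftmost symbol for 18 of the 23 falls with 3 values.

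U072 was among the falls that passed most often under other settings. It was at -2.09 in FLIP94-508C and -1.82 in ICC3996, with -3.12 in Lasseter, all more than 2-fold below control. Its mean was -2.35 (SE 0.28, 5.08-fold lower, adjusted p = 0.000182 in limma), and it passed in 14 of 16 alternative fits. U160 and U166 each passed in 10 of the 11 in which they could be tested, and U201 in 8 of 9. U072 was singled out after these values were seen. Without the Lasseter sample the mean of U072 was -1.88 (adjusted p = 0.0118 in limma). The other feature that passed without Lasseter, U186, has no Lasseter value and was at -4.46 in FLIP94-508C and -1.08 in ICC3996.

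The falls with the largest means among features measured in all genotypes were U033 and U303. U303 was at -1.14 in FLIP94-508C and -3.45 in ICC3996, with -2.52 in Lasseter, with a mean of -2.37 (SE 0.35, adjusted p = 0.00405 in limma). The order of the genotypes differed between them: ICC3996 was lowest for U303, whereas for U033 Lasseter was far below the others, at -5.41 against -1.91 in FLIP94-508C and -1.19 in ICC3996. The mean of U033 was -2.83 (SE 0.73, adjusted p = 0.0377 in limma), and without the Lasseter sample it was -1.37 (adjusted p = 0.737). U303 was also no longer called without that sample (log2 ratio -2.19, adjusted p = 0.0852).

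The 3 rises were small. CA1173 was at 0.97, 0.47 and 1.05 in FLIP94-508C, ICC3996 and Lasseter (mean 0.83, SE 0.22, adjusted p = 0.0427 in limma). U102 was at 0.81, 0.50 and 1.13 (mean 0.81, SE 0.21, adjusted p = 0.0383). U386 was at 0.80, 0.53 and 1.35 (mean 0.90, SE 0.23, adjusted p = 0.0383). In each, ICC3996 had the lowest value and Lasseter the highest. CA1173 kept its call in 5 of 16 alternative fits and U386 in 7.

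Features that were 2-fold lower in all genotypes were few. Of 507 features with 3 values, 6 were at least 2-fold lower in all (1.18%) and 0 at least 2-fold higher, and 23 were lower in exactly 2. Of the 6, 4 passed the test. The most even were U250, at -1.11 in FLIP94-508C and -1.26 in ICC3996, with -1.21 in Lasseter, and LS0001, at -1.27, -1.18 and -1.07. Their standard deviations over the genotypes, 0.08 and 0.10, were smaller than those of U072 (0.69) or U303 (1.16). Neither passed limma's test, whose error is taken from a feature's spread over all 18 samples (adjusted p = 0.265 and 0.203). With medians subtracted 4 features were lower in all genotypes, and with equal spread 2.

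The falls at least 2-fold in a pair of genotypes mostly included Lasseter. ICC3996 and Lasseter shared 12 that were not 2-fold lower in FLIP94-508C, FLIP94-508C and Lasseter shared 9, and FLIP94-508C and ICC3996 shared 2. Counting also those seen in all 3, the 18 common to ICC3996 and Lasseter were 69.2% of the ICC3996 falls and 18.6% of the Lasseter falls. The 15 common to FLIP94-508C and Lasseter were 51.7% and 15.5%, and the 8 common to FLIP94-508C and ICC3996 were 27.6% and 30.8%. Among all 507 features, 5.72% were 2-fold lower in FLIP94-508C and 5.13% in ICC3996, with 19.1% in Lasseter. Across features, Pearson's r was 0.44 between FLIP94-508C and Lasseter (536 features), 0.43 between ICC3996 and Lasseter (517) and 0.22 between FLIP94-508C and ICC3996 (519). Spearman's rho was 0.47, 0.32 and -0.01, in the same order. Features of 1 array share slides and normalisation and are not replicates.

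**Figure D3:**
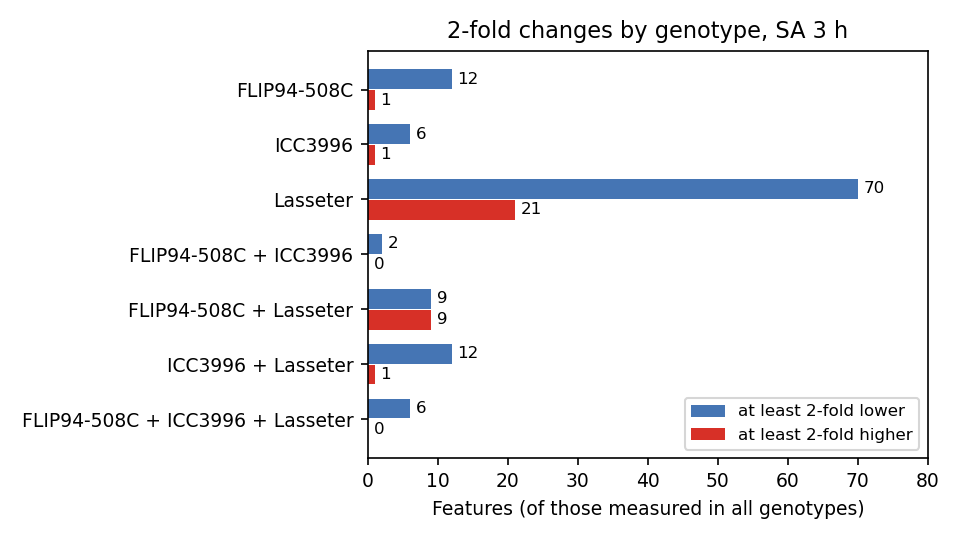
Number of features at least 2-fold lower (blue) or higher (red) 3 h after SA, by the genotypes in which they were so, among the 507 features measured in all 3. The longest bars are the 70 falls and 21 rises seen in Lasseter but not in the other genotypes at this limit; 6 falls and 0 rises were common to all.

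Rises of at least 2-fold in FLIP94-508C were mostly seen in Lasseter too, while most of those in Lasseter, 21 of 31, were seen in Lasseter alone. FLIP94-508C and Lasseter had 9 in common, which is 90.0% of the 10 such rises in FLIP94-508C and 29.0% of the 31 in Lasseter. Among all 507 features, 6.11% were at least 2-fold higher in Lasseter and 1.97% in FLIP94-508C. In ICC3996 the same 9 lay between -0.91 and 0.78, with a median of 0.06. Of the 9, 7 have LS identifiers, as do 88 of the 507 features with 3 values; the 9 were picked by their values, so no test was made. LS0459 was at 3.05 in FLIP94-508C and 0.78 in ICC3996, with 3.73 in Lasseter, and LS0481 at 2.90, -0.13 and 3.92. Neither had enough values in other groups to be tested, and both were chosen after their values were seen. Of the 6 that were tested none passed as a mean response, the nearest being LS0341 (2.18, 0.67 and 1.76, mean 1.54, SE 0.43, adjusted p = 0.0534 in limma). The departure of ICC3996 was not called for any of the 6 (adjusted p from 0.339 to 0.781 in limma).

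Changes seen in 1 genotype were far more frequent than shared ones. At the 2-fold limit 107 of the 507 features were changed in exactly 1 genotype and 359 in none. Counted by direction, features lower in 1 genotype and not 2-fold lower in another numbered 12 in FLIP94-508C and 6 in ICC3996, with 70 in Lasseter, and the same count for rises was 1, 1 and 21. These counts include both sides of 2 features that changed in opposite directions, described last. Most of these features were not near control in the other genotypes. Those with both other values near control (log2 ratio within 0.32 of 0) were 1 fall in FLIP94-508C, 3 falls in ICC3996, and 12 falls and 3 rises in Lasseter. CA1082 was at -1.01 in FLIP94-508C and -0.15 in ICC3996, with -0.03 in Lasseter. U215 was at -1.22 in ICC3996, -0.05 in FLIP94-508C and 0.25 in Lasseter. In Lasseter LS0034 was at -1.71, with 0.03 in FLIP94-508C and 0.21 in ICC3996, and U075 at 1.94, with -0.21 and -0.16. None of the first 3 passed a test of that genotype against the others (adjusted p = 0.711, 0.351 and 0.467 in limma), and U075 was not tested for lack of values in other groups. The 2 features with opposite 2-fold changes were U420 and U477. U420 was at -2.19 in Lasseter and 1.02 in ICC3996, and U477 at -3.24 in FLIP94-508C and 1.44 in Lasseter.

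Whether a genotype departed from the others was tested with 1 further term for its SA sample at 3 h, over the 493 features tested that had 3 values. A lone sample is assumed there to vary like the other samples. Lasseter departed for 2 features (0.406%), both lower, and 56 had an unadjusted p under 0.05. FLIP94-508C and ICC3996 departed for 0 features each in limma, where 27 and 49 had an unadjusted p under 0.05. LS0159 was at -4.87 in Lasseter, -1.48 in FLIP94-508C and -0.60 in ICC3996, a departure of -3.93 (SE 0.72, adjusted p = 0.0416 in limma). U493 was at -4.28, -0.96 and -0.72, a departure of -3.33 (SE 0.60, adjusted p = 0.0416). Both features had also fallen in the mean (adjusted p = 0.0357 and 0.0289), and all values lay below control. The same Lasseter value enters the mean and the departure: without it the means were -1.01 for LS0159 and -0.88 for U493, neither called (adjusted p = 0.470 for both). Neither departure was called after scaling to equal spread (adjusted p = 0.993 for both), where the count was 0, or without the MeJA samples (adjusted p = 0.237 for both).

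Missing values touched the strongest falls. 51 features had a value in exactly 2 genotypes, and 46.1% of those 102 values were at least 2-fold lower, against 9.99% of the 1521 values of features measured in all 3. For rises the shares were 1.96% and 2.83%. In 14 of the 51 features both values were 2-fold lower. Where FLIP94-508C had no value (10 features), 7 were 2-fold lower in ICC3996 and 8 in Lasseter. Values of features measured in exactly 2 genotypes were also more often 2-fold lower in the other SA and ACC groups. The shares were 62.5% against 15.3% at 27 h after SA and 35.2% against 14.5% at 3 h after ACC. The 3 h MeJA samples had few falls (2.82% against 1.44%). The deposited readme lists empty, poor and negative spots among those marked by the scanner software. Whether low signal led to the missing values was not tested, and the 6 features counted as lower in all genotypes leave these out.

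Of the 29 called falls, 6 had values in only 2 genotypes, and 3 of those had the largest means of all. U247 was at -5.38 in FLIP94-508C and -2.21 in Lasseter. U166 was at -3.20 in ICC3996 and -4.28 in Lasseter, and U160 at -4.04 and -3.37. Their fitted means, which allow for the missing genotype, were -3.89 (SE 0.63, adjusted p = 0.00405 in limma), -3.87 (SE 0.42, adjusted p = 0.000182) and -3.72 (SE 0.38, adjusted p = 0.000182). Over features measured in all 18 samples, 22 features were called in place of 32, with 3 rises and 19 falls.

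By identifier, 22 of 335 tested U features fell (6.57%), 6 of 100 CA features (6%) and 1 of 88 LS features (1.14%), which was LS0159. Among features with 3 values, 25.0% of CA, 19.3% of LS and 23.5% of U features were at least 2-fold lower in at least 1 genotype. At least 2-fold higher were 3.13% of CA, 15.9% of LS and 4.95% of U features. LS features also lacked the most values at this time, 36.5% against 12.3% for CA and 19.6% for U. The sources used here do not explain the prefixes.

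SA was then compared with ACC and MeJA at 3 h. SA differed from ACC for 3 features (0.574% of 523), 1 higher (0.191%) and 2 lower (0.382%) under SA. U386 was at 0.80, 0.53 and 1.35 after SA and at -1.40, -0.09 and -0.92 after ACC in FLIP94-508C, ICC3996 and Lasseter (difference 1.70, SE 0.33, adjusted p = 0.0308 in limma). This difference lost its call in 10 of 18 alternative fits. U166 was lower under SA by a fitted difference of -3.28 (SE 0.54, adjusted p = 0.0120), with -1.40, -0.39 and 0.03 after ACC. U160 was lower by -3.16 (SE 0.49, adjusted p = 0.0120), with -1.31, 0.04 and -0.38 after ACC. The ICC3996 sample after ACC had a standard deviation over features of 0.51, against 1.19 in FLIP94-508C and 0.88 in Lasseter, and without it 26 features differed, 15 higher and 11 lower. Without the Lasseter sample of either group, without the ICC3996 sample after SA, and with equal spread, 0 features differed in limma (34, 33, 87 and 38 with an unadjusted p under 0.05 for ACC Lasseter, SA Lasseter, SA ICC3996 and equal spread). U160 and U166 have no FLIP94-508C value after SA, so they could not be tested without the ICC3996 or the Lasseter sample after SA. Without the FLIP94-508C sample after SA 8 were lower and none was higher. With medians subtracted 1 was higher and 5 lower.

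SA differed from MeJA for 7 features (1.34% of 523), 2 higher (0.382%) and 5 lower (0.956%) under SA. The higher ones were CA1173 (difference 1.51, SE 0.32, adjusted p = 0.0306 in limma) and U102 (1.43, SE 0.30, adjusted p = 0.0306). After MeJA, CA1173 was at -0.54, -0.99 and -0.53 and U102 at -0.49, -0.86 and -0.51 in FLIP94-508C, ICC3996 and Lasseter, all below control, whereas all SA values were above it. The lower ones were U072, U160, U166, U201 and U247. U072 was at -0.48, -0.73 and -0.16 after MeJA (difference -1.89, SE 0.39, adjusted p = 0.0306), and U247 at -0.26, -0.34 and -0.14 (fitted difference -3.64, SE 0.81, adjusted p = 0.0493). The MeJA samples at 3 h had standard deviations over features of 0.33 to 0.37, and the 29 features that fell after SA had a median MeJA response of -0.14, with a median of -0.03 over all features tested. Their median response to ACC was -0.55, with -0.17 over all. U386 was not distinguishable between SA and MeJA (difference 0.12, SE 0.33, adjusted p = 0.942), at 0.74, 0.74 and 0.85 after MeJA. With equal spread 2 features were higher and 2 lower under SA, and 0 differed without the ICC3996 or Lasseter sample after SA (70 and 12 with an unadjusted p under 0.05 in limma). Without any 1 of the MeJA samples 2 features differed, both lower under SA. None of CA1173, U102, U072 and U247 was called in the fits without 1 of these SA or MeJA samples. U160 and U166 could not be tested without the ICC3996 or the Lasseter sample after SA, nor U201 and U247 without the Lasseter one. With equal spread CA1173 (adjusted p = 0.00186 in limma) and U102 (adjusted p = 0.000515) were called. U072 and U247 were not (adjusted p = 0.217 for both).

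**Figure D4:**
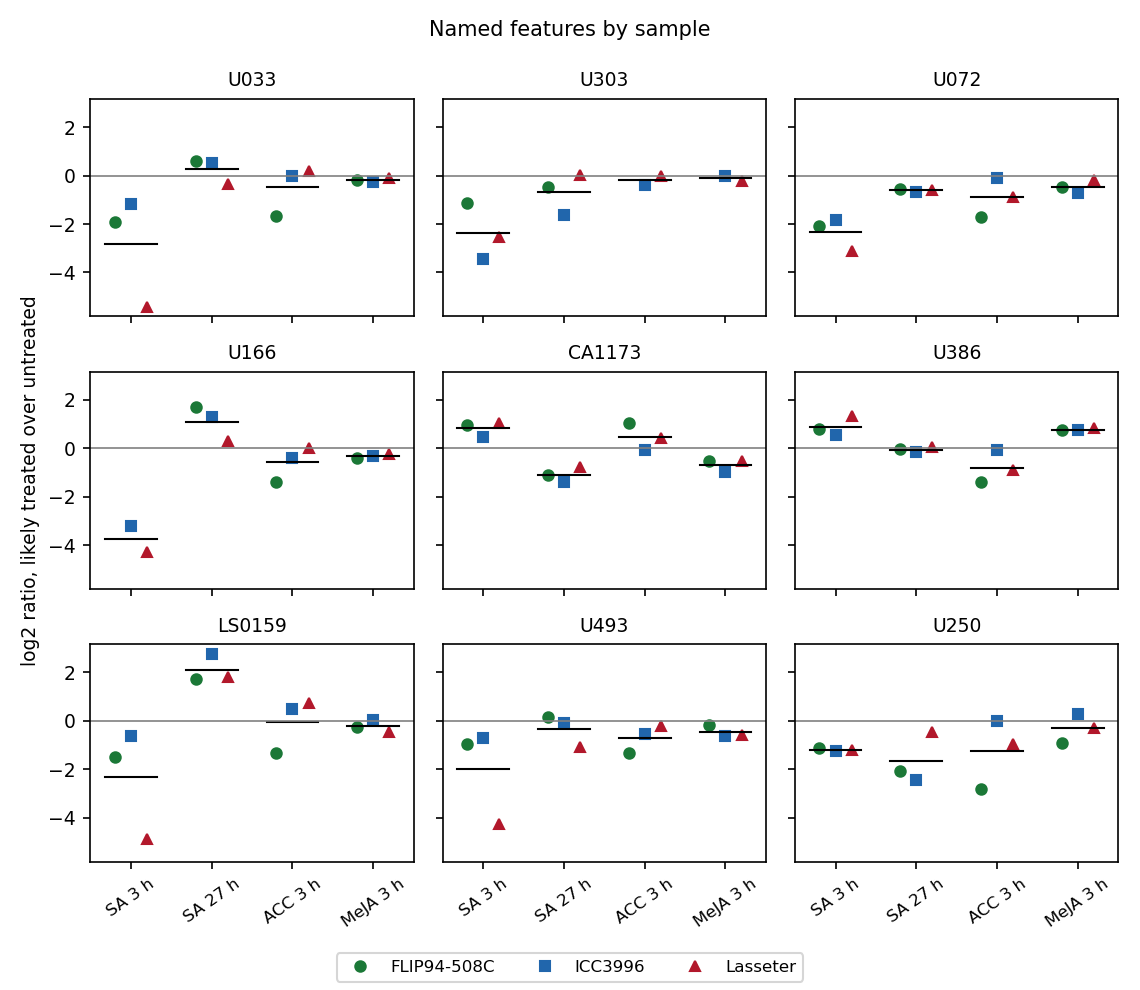
Log2 ratio of 9 features in each genotype 3 h and 27 h after SA, 3 h after ACC and 3 h after MeJA. Symbols are genotypes and bars the mean of the values present; after 3 h of SA, CA1173 and U386 lie above 0 and the others below it, and LS0159 and U166 lie above 0 at 27 h.

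The features called at 3 h were looked up at 27 h, in samples that share with that call the estimate of the spread and the genotype term, through which they also enter the fitted 3 h means of the 6 falls with a missing genotype. Of the 29 early falls, 9 were called lower at 27 h (9.75% of all 523 features were), 2 higher (4.78% of all were) and 18 were not called. Their median at 27 h was -0.56, with -0.12 over all features tested. U369, the most even of the small falls, was still lower in all genotypes, at -0.46, -0.49 and -0.75 (adjusted p = 0.0205 in limma). U461 was at -1.42 in FLIP94-508C and -2.07 in ICC3996, with -2.48 in Lasseter at 27 h (adjusted p = 0.0355), so that FLIP94-508C, which was near control at 3 h, was lower by then. The 2 features called higher at 27 h after an early fall were LS0159, at 1.74, 2.77 and 1.83 (adjusted p = 0.0259), and U166, at 1.71, 1.28 and 0.29 (adjusted p = 0.0440).

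The difference between the times itself passed for 5 of the 29 falls, all higher at 27 h than at 3 h (1.72% of all features were). These were LS0159, U166, U072, U160 and U206. U072 was back to -0.55, -0.67 and -0.59 (difference 1.74, SE 0.39, adjusted p = 0.0369 in limma), which no longer differed from control by the test (adjusted p = 0.168). U160 remained lower at 27 h, at -0.90, -2.55 and -1.16, while differing from its early level (difference 2.18, SE 0.49, adjusted p = 0.0369). U206 went from -0.56, -0.36 and -1.41 to 0.77, 0.42 and 0.18. The 3 h values that chose these features enter this difference, so it is given as a description. Over all features 9 were higher and 2 lower at 27 h than at 3 h (2.10% together); without the Lasseter sample at 3 h the count was 5, without FLIP94-508C there 23 and without ICC3996 there 17, and leaving out the 27 h samples of FLIP94-508C, ICC3996 and Lasseter in turn gave 4, 18 and 3. The largest rise between the times among features with 3 early values, beside LS0159, was in U212, which was not called at 3 h (-0.34, 0.77 and -0.51) and stood at 3.31, 2.09 and 3.98 at 27 h (difference 3.15, SE 0.73, adjusted p = 0.0369). Of the 3 rises, CA1173 and U102 were lower than control at 27 h in all genotypes, and U386 was close to it, at -0.04, -0.16 and 0.05 (adjusted p = 0.925).

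**Figure D5:**
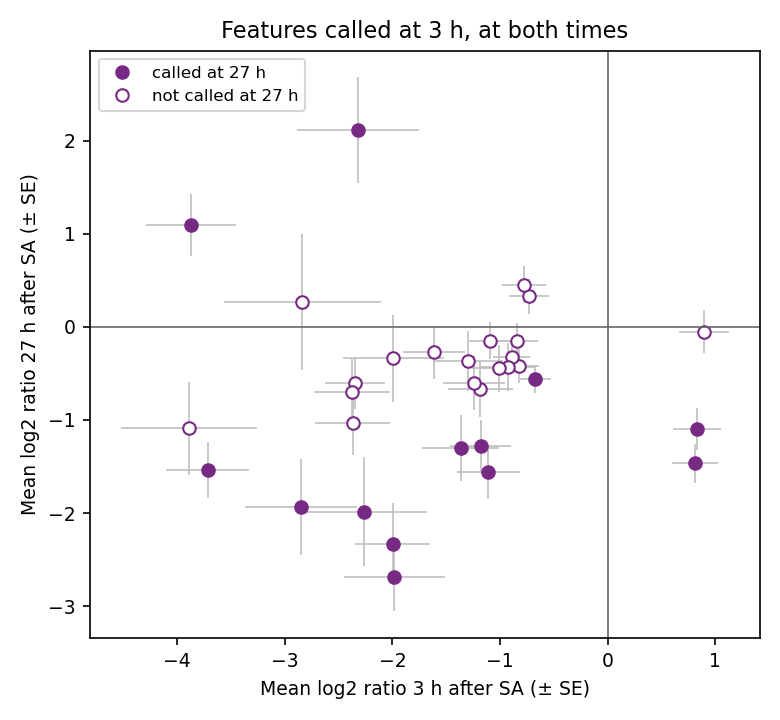
Mean log2 ratio at 3 h (horizontal) and 27 h (vertical) after SA, each ± SE, of the 32 features called at 3 h. Filled points were also called at 27 h: 9 early falls are lower, 2 are above 0, and 2 of the 3 early rises lie below 0.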

How the data were processed

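The data are the authors' deposited log2 ratios, 1 column per sample. Per the design text, the authors quantified the spots with ImaGene 5 (5.5 in the readme), and used GeneSight 3 for local background subtraction, omission of flagged spots, Lowess normalisation, a Cy5/Cy3 ratio, a shifted logarithm and the combining of duplicate spots; the sources used here do not give the size of the shift, which pulls ratios of dim spots towards 0. Per the labels each column is a mean of 3 biological replications, so the spread behind a value is unknown, and precision is limited by the number of arrays.

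The table was fitted as deposited with limma 3.58.1 in R 4.3.3: 6 compound-by-time means and a genotype term over all 18 samples, 10 residual degrees of freedom, two-sided tests, Benjamini-Hochberg adjustment over 523 features with at least 2 of 3 values in every group, threshold 0.05. Genotypes are the replicates. The error behind a p-value is pooled over the 6 groups. It reflects how unevenly the genotypes responded across all of them together with measurement error, not their unevenness 3 h after SA alone. The genotype term is the replicate block, taken from the labels; deviations from group means had a mean correlation of 0.02 over 45 pairs of samples of 1 genotype. A departure of 1 genotype was tested with 1 further term (9 residual degrees of freedom). "2-fold" means a log2 ratio of at least 1 in size. The tests were tried on simulated data.

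Features were named by rule: the 2 largest changes each way among those past the threshold, preferring 3 values, the 2 most even shared 2-fold changes, and the largest change seen in 1 genotype alone; others are said to be chosen afterwards, or belong to counts of 5 or fewer. The samples, lists and tests were chosen with earlier results of these data known. Planned gene lists could not be matched to features. Alternatives in filter, centring, scaling, weights, variance prior, samples, threshold and test are in the closing section.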

Additional observations from a re-analysis of the deposited data

Results flagged for a closer look

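In a test of the difference itself, 2 features departed in Lasseter from the other genotypes 3 h after SA: LS0159 by -3.93 and U493 by -3.33 on the log2 scale. Between the SA times, 11 features differed. Groups of 3 samples were not searched for outlying samples.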

How the results depend on the processing

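No feature named by rule from a tested comparison changed sign under any setting in which it was refitted. Those named for shared changes or for changes in 1 genotype alone were not followed through the settings. With equal spread the order of the genotypes turned. The features changed 2-fold went from 56, 53 and 155 in FLIP94-508C, ICC3996 and Lasseter to 90, 38 and 47. Against 32 features called 3 h after SA, 14 were called with equal spread, 21 with a variance trend, 6 with the 3 h samples alone, and 0 with the SA samples alone (103 at an unadjusted p under 0.05 in limma) or by the methods' t-test after adjustment (32 unadjusted). Leaving out samples gave 0 to 35. The count was 2 without the Lasseter sample, where 27 of the 32 could be tested. Without all samples of FLIP94-508C, ICC3996 and Lasseter it was 17, 11 and 0 (20 unadjusted). SA differed from ACC for 0 features over those measured in all 18 samples, with equal spread and in the 3 h samples alone, 6 with medians subtracted, 30 with sample weights and 5 with a variance trend, and leaving out samples gave 0 to 26 (8 without FLIP94-508C after SA, 26 without ICC3996 after ACC, of which 15 were higher, and 16 without all of ICC3996). From MeJA it differed for 3, 4 and 0 under the first 3 of these settings, 11 with sample weights and 2 with a variance trend, and leaving out samples gave 0 to 10. Between the SA times the counts were 2 over features measured in all samples and 0 in SA samples alone (77 unadjusted), and leaving out samples gave 0 to 23 (17 without ICC3996 at 3 h). With no replicate block, that is without the genotype pairing, the counts were 27 for the response, 5 against ACC, 4 against MeJA and 18 between the times. Departures of FLIP94-508C numbered 1 over features measured in all samples and with medians subtracted, 3 with equal spread, 2 with sample weights and 3 when features with 2 values were added; of ICC3996, 1 with no filter and 1 with those features added; and of Lasseter, 1 over features measured in all samples, 0 with equal spread, 24 with sample weights, 1 with a variance trend and 0 without the MeJA samples. The settings with added features and without MeJA were chosen after seeing the data. Features lower in all genotypes numbered 15 at a 1.5-fold limit, 1 at 3-fold and 2 with equal spread, and 3 were higher in all at 1.5-fold. Those changed in exactly 1 genotype numbered 181 at 1.5-fold, 48 at 3-fold and 68 with equal spread, and the mean per sample, 88, was 191 at 1.5-fold, 42.7 at 3-fold, 58.3 with equal spread and 45 over features measured in all 18 samples. The causes were not tested. The number of arrays and the unknown error of each mean limit what can be called.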
